A study of Mus musculus with 12 samples.

Results

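Matrix metalloproteinases (MMPs) and their tissue inhibitors (TIMPs) were followed in GFP(+) cells sorted from mouse liver before and after bile duct ligation (BDL), a surgical block of bile flow that leads to biliary fibrosis. The 10 genes described here are *Mmp2*, *Mmp7*, *Mmp8*, *Mmp9*, *Mmp12*, *Mmp13*, *Mmp14*, *Mmp19*, *Timp1* and *Timp2*. They were found by symbol among the 16971 genes of the deposited table, each was listed once, and all 10 had normalized counts summing to at least 10 over the libraries, a minimum that 12891 genes passed. All mice were C57BL/6 and carried Prom1CreERT2-nLacZ/+ and Rosa26Lsl-GFP/+, so that tamoxifen, given to adult mice of 6 weeks, switched on GFP for good in cells that expressed *Prom1* and in their progeny. Tamoxifen was given 7 days before the operation in every group, including the controls, which the labels call Sham day 0 (D0 from here on) and the study's text describes as taken before BDL. The other groups were collected 3 days (D3) and 14 days (D14) after BDL. The Cre recombinase is knocked into one copy of *Prom1*, a gene of hepatic progenitor cells and cholangiocytes, and GFP marks any cell in which that promoter was active when tamoxifen was given. Cells came from the nonparenchymal fraction of the dissociated liver and were sorted on GFP alone.

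MMPs are zinc-dependent endopeptidases that cut collagens, elastin, laminins and other matrix proteins. Most are secreted as inactive proenzymes, and a few, such as MMP14, are anchored in the cell membrane. TIMPs bind the active site of these enzymes and block it. In the fibrotic liver, MMPs and TIMPs come from stellate cells, fibroblasts, macrophages, neutrophils and the biliary epithelium, and the balance between enzymes and inhibitors bears on how much scar matrix is laid down and removed.

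The deposited values are 1 mean per gene and group of counts normalized by the upper quartile method, from 3 D0, 3 D3 and 4 D14 libraries. The labels describe 6 D14 libraries, and which 4 entered the means is not stated. The study's text says that 2 D14 samples were excluded after sequencing for too few reads. It gives 1 male and 2 females at D0, 2 males and 1 female at D3, and 3 males and 1 female at D14. Sex is therefore not balanced over the groups, and its part in the differences was not tested. The depth of each library is unknown and no value for a named library was analysed, so no SD and no replicate test is given. Replicate error was instead bounded in 2 ways. The table gives for each gene the count of its highest library and the geometric mean over all 10 libraries, which together with the group means limit what any single library can have held. The gap between the group means and the geometric mean also gives an approximate spread between libraries of the same group, on the log2 scale and pooled over the 3 groups, and a ratio of means is set beside it.

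The sorted cells did not carry the markers of the biliary epithelium at a high level. The normalized count of the cholangiocyte keratin *Krt19* was 21.5 at D0, 12.7 at D3 and 14.3 at D14, and that of *Prom1* was 6.66, 0.956 and 1.76. The macrophage gene *Lyz2* stood at 2280, 4560 and 11200, and the 7 macrophage markers as a list summed to 4970, 8990 and 14000, against 94.2, 48.8 and 58.5 for the 12 cholangiocyte markers. *Csf1r*, the next highest of the 7 at D14, stood at 1360, 2140 and 1230. Of the 7, 5 were more than 1.5-fold above D0 at D3, beside 19.2% of all genes that passed the minimum. Only 1, *Lyz2*, was so at D14, beside 21.2%. From D3 to D14, 1 of the 7 was higher and 3 were lower. A single D14 library held 42.6% of the *Lyz2* sum of that group, and without it the D14 mean was 8570. In bulk samples such as these, fewer cells of a type and less RNA per cell cannot be told apart. None of the 11 defining markers of stellate cells and fibroblasts was at the floor at D0, where they summed to 755, and they summed to 25.3 and 77.3 after BDL, with *Lum* and *Dpt* at the floor at D3 and *Lrat* at D14. The floor is taken as 4 times the lowest mean of a group, which is 0.512 at D0, 0.292 at D3 and 0.244 at D14.

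Set side by side, the 10 genes moved in different directions. At D3 against D0, 3 of the 10 were more than 1.5-fold higher (*Mmp12*, *Mmp7* and *Mmp19*), where 19.2% of all genes were, and 3 were more than 1.5-fold lower (*Mmp2*, *Timp1* and *Mmp8*), where 29.2% of all genes were. The *Mmp8* call at D3 was lost under quantile normalization of the group means, with a log2 ratio of -0.27, and with a pseudocount of 1, with -0.54. At D14 against D0, 5 were higher (*Mmp7*, *Mmp12*, *Mmp14*, *Mmp8* and *Timp2*), beside 21.2% of all genes, and 3 were lower (*Mmp2*, *Mmp9* and *Mmp13*), beside 28.8%. The *Mmp13* call was lost under quantile normalization, with a log2 ratio of -0.18. From D3 to D14, 5 were higher (*Mmp2*, *Mmp7*, *Timp1*, *Mmp8* and *Mmp14*), beside 21.2%, and 4 were lower (*Mmp12*, *Mmp19*, *Mmp13* and *Mmp9*), beside 19.7%. The comparisons with D0 share the same 3 control libraries. The median log2 ratio of the 10 genes was 0.17 at D3 and 0.47 at D14, both against D0, beside -0.02 and -0.04 over all 12891 genes.

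The ratio was both past 1.5-fold and larger than the spread within groups for 5 of the 10 genes at D3 against D0, beside 39.6% of all genes. It was so for 7 at D14 against D0, beside 41.1%, and for 8 between D3 and D14, beside 31.7%. A stricter reading asks that no library of one group can have reached any library of the other. With the group means and the highest library alone, *Mmp12* met this at D3 in the higher direction, where 0.116% of all genes did, and *Mmp2* and *Timp1* met it in the lower direction, where 1.68% did. With the geometric mean as well, a bound added after the data were seen, *Mmp19* joined them, making 4 of the 10 in either direction beside 3.79% of all genes. None of the 10 met it at D14 against D0, beside 3.73%, and only *Mmp19* met it between D3 and D14, beside 1.92%.

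**Figure D1:**
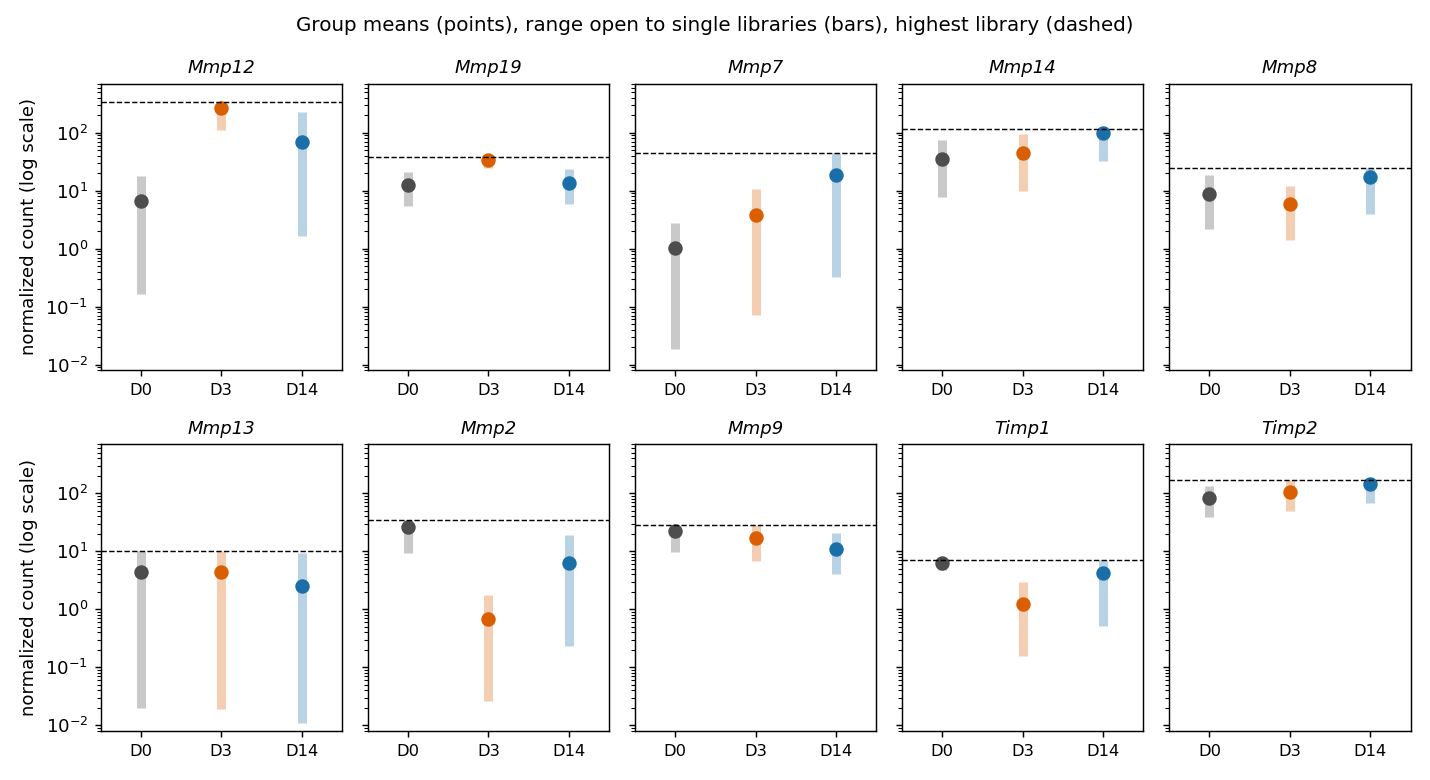
Normalized count of each of the 10 genes on a log scale by group. Points are the authors' group means of 3 D0, 3 D3 and 4 D14 libraries, bars span the values that a single library of the group can have held given the means, the highest library and the geometric mean, and the dashed line is the highest library. The D3 bar lies above the D0 bar for *Mmp12* and *Mmp19* and below it for *Mmp2* and *Timp1*.

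*Mmp12* encodes macrophage elastase, which degrades elastin and is made mainly by macrophages. It lies on chromosome 9 at 7344381-7369499 (mm10, plus strand). Its mean was 6.62 at D0, 264 at D3 and 69.7 at D14, which is 39.9-fold higher at D3 and 10.5-fold higher at D14 than at D0. On the log2 scale these ratios were 5.32 and 3.40, with a spread within groups of 1.29. The highest library held 336 and belonged to D3, since neither other group summed to enough. Every D3 library held at least 113, and no D0 library can have passed 18.1. All 3 D3 libraries were thus high, and the difference does not rest on a single one: without the highest, the mean of the other 2 was 228. At D14 the 4 libraries can have lain anywhere from 1.63 to 226, so that overlap with either other group is possible.

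Among the 12891 genes, the *Mmp12* ratio at D3 against D0 ranked 2, behind *Cfd*, whose D0 mean of 0.128 is at the floor. Among the 7293 genes with a mean of at least 10 over all libraries it ranked 1. At D14 against D0 it ranked 67 of 12891 and 25 of 7293. The median log2 ratio of the 7 macrophage markers was 0.76 at D3 and 0.35 at D14 against D0, beside the 5.32 and 3.40 of *Mmp12*. The Kupffer cell markers, which label the resident macrophages of the liver, summed to 9620 at D0, 21500 at D3 and 1480 at D14. Markers of recruited macrophages summed to 171, 649 and 3510, led at D14 by *Gpnmb* with 1130 and *Chil3* with 858. *Mmp12* peaked at D3, as did the sum of the Kupffer cell list, whereas the sum of the recruited list was highest at D14. Both lists held genes that were higher at D3 than at D0. Of the 6 Kupffer cell markers, 5 were more than 1.5-fold higher, and of the 8 recruited markers 4 were higher and 1 was lower, beside 19.2% of all genes higher. *Gpnmb* was 12.4-fold and *Chil3* 6.15-fold higher at D3. The part of either population in the *Mmp12* level was not tested.

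From D3 to D14, the *Mmp12* mean was 3.79-fold lower, a log2 ratio of -1.92 that is 1.48 times its spread. Likeness of other genes to this pattern was measured as the Euclidean distance in 2 log2 ratios, D3 against D0 and D14 against D3, over the 3 group means. The nearest genes to *Mmp12* were *Cfd* at 0.972, *Gm36995* at 1.177 and *Gm9762* at 1.412, and all 3 had a D0 mean at the floor. Within a distance of 0.25 there were 0 genes for *Mmp12*, 3 for *Mmp2*, 5 for *Mmp7*, 22 for *Mmp19* and 495 for *Timp2*. Few genes have large ratios, so these counts depend in part on the size of a gene's ratios, which are small for *Timp2*.

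*Mmp19*, which encodes a secreted MMP that cuts basement membrane proteins, lies on chromosome 10 at 128790910-128800824 (plus strand). Its mean was 12.3 at D0, 34.1 at D3 and 13.4 at D14. The D3 libraries held between 24.8 and 38.5, above the 20.9 that a D0 library can have reached and the 23.9 that a D14 library can have reached. The 3 D3 libraries were therefore high together, 2.77-fold over D0 on average, and the gene was back near its starting level at D14, with a log2 ratio to D0 of 0.12. Its spread, 0.37 on the log2 scale, was among the smaller ones of the 10 genes. *Mmp19* shares 789 bases of exon with *Tmem198b* on the opposite strand. The counting is not stated to use strand, so reads of the 2 genes may not have been told apart, and *Tmem198b* stood at 2.88, 7.57 and 6.44.

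*Mmp7* encodes matrilysin, the smallest MMP, which is made by epithelia and is known in injured bile ducts. It lies on chromosome 9 at 7692090-7699585 (plus strand). Its mean was 1.01 at D0, 3.87 at D3 and 18.6 at D14. The D14 mean was 18.4-fold above D0 and 4.81-fold above D3, with log2 ratios of 4.20 and 2.26 and a spread of 1.36, and the D3 mean was 3.83-fold above D0. The ratio to D0 ranked 31 among the 12891 genes. A single D14 library with 45.1 carried 60.6% of that group's sum. Without it the mean of the other 3 was 9.77, and the log2 ratio to D0 was 3.27 and to D3 was 1.34. The D14 group was thus uneven, its libraries can have lain between 0.322 and 45.3, and overlap with D0, where a library can have held up to 2.80, is possible. Of the 9 cholangiocyte markers that passed the minimum, 7 were more than 1.5-fold lower at D14 than at D0, beside 28.8% of all genes. Only 1 was higher, beside 21.2%: *Cldn4*, a tight junction gene, with 2.21, 3.21 and 6.20. Between D3 and D14, 4 of the 9 were more than 1.5-fold higher and 0 were lower, beside 21.2% and 19.7% of all genes. Without the highest library of each gene 2 were higher. The part of these cells in the *Mmp7* level was not tested.

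The genes closest to *Mmp7* in pattern were *Ugt1a6b* at a distance of 0.062, *Nrg2* at 0.112 and *Ugt1a7c* at 0.219. The *Ugt1a* genes encode glucuronosyltransferases, enzymes that conjugate bilirubin and drugs, and they share exons, so their counts are uncertain as single genes. *Ugt1a7c* stood at 3.29, 14.3 and 74.8, while *Ugt1a6b* and *Nrg2* stayed under 4 in every group mean, the highest being 3.69 and 2.46. The D0 means of *Ugt1a6b* and *Nrg2*, 0.208 and 0.128, are at the floor, so their distances rest on floor values.

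*Mmp14* encodes the membrane-anchored MMP that activates proMMP2 at the cell surface, and lies on chromosome 14 at 54431612-54445364 (plus strand). Its mean was 35.6 at D0, 45.2 at D3 and 96.7 at D14. It was 2.72-fold above D0 and 2.14-fold above D3 at D14, log2 ratios of 1.44 and 1.10 beside a spread of 0.68. The highest library, with 117, belonged to D14 by the bound that includes the geometric mean, and the mean of the other 3 was 89.9. The D14 libraries were on average the highest, but a library of that group can have held as little as 32.1, within the range open to the other groups.

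*Mmp2*, encoding gelatinase A, the enzyme that MMP14 activates and a product of stellate cells and fibroblasts, went the other way. It lies on chromosome 8 at 92827291-92853420 (plus strand). Its mean was 26.5 at D0, 0.676 at D3 and 6.26 at D14. Every D0 library held at least 9.56, and no D3 library can have held more than 1.79. The log2 ratio at D3 was -5.29, or 39.2-fold lower, with a spread of 1.18. It ranked 124 from the lowest among the 12891 genes, and 17 among the 7293 genes with a mean of at least 10. *Mmp2*, with a mean of 10.6 over all libraries, entered the smaller set only through D0. At D14 the mean was 9.26-fold above that of D3 and 4.23-fold below D0, and its libraries can have lain between 0.234 and 19.5. All 11 stellate cell and fibroblast markers were also lower at both times than at D0, with median log2 ratios of -4.80 and -3.30, and the part of these cells in the *Mmp2* level was not tested. The genes nearest to *Mmp2* in pattern were *Ackr1*, *Degs2* and *Pde3a* at distances of 0.184, 0.193 and 0.208, each at the floor at D3.

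*Mmp9*, encoding gelatinase B of neutrophils and macrophages, lies on chromosome 2 at 164940780-164955850 (plus strand). Its mean was 22.3 at D0, 17.1 at D3 and 10.9 at D14. The D14 mean was 2.05-fold below D0, a log2 ratio of -1.03 beside a spread of 0.43, and the D3 ratio of -0.38 was smaller than that spread. Day 0 libraries held at least 9.68 and D14 libraries at most 20.5, so the groups may overlap.

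The collagenases *Mmp8* and *Mmp13* cut fibrillar collagen. *Mmp8*, the collagenase of neutrophils, lies on chromosome 9 at 7558456-7568485 (plus strand), with means of 8.86 at D0, 5.78 at D3 and 16.9 at D14. At D14 it was 1.91-fold above D0 and 2.92-fold above D3, log2 ratios of 0.93 and 1.55 beside a spread of 0.64, while the D3 ratio of -0.62 was within that spread. The D14 group held the highest library, 24.5, and no group was clear of another. The neutrophil markers summed to 608, 267 and 172, with *Elane*, *Camp* and *Ly6g* at the floor at D14. Of those that passed the minimum, 10 of 10 were more than 1.5-fold lower at D14 than at D0, beside 28.8% of all genes. Without the D0 library that was highest for the gene, 9 of the 10 were lower by more than 1.5-fold. The *Mmp8* mean was highest at D14, where the sum of the neutrophil markers was lowest. From D3 to D14, 7 of the 10 markers were more than 1.5-fold lower, beside 19.7% of all genes, and 1 was higher, beside 21.2%. The part of neutrophils in the *Mmp8* level was not tested.

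*Mmp13*, the main interstitial collagenase of rodents, lies on chromosome 9 at 7272514-7283331 (plus strand), with means of 4.46, 4.42 and 2.57. Its spread of 1.64 is larger than each of its 3 log2 ratios, -0.01, -0.80 and -0.78, and a single library can have held 10.1 in any of the groups to within rounding, except D14, where the limit is 9.25. No difference in *Mmp13* between the groups was larger than the spread within them.

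*Timp2*, which encodes an inhibitor of most MMPs that also helps MMP14 to activate proMMP2, lies on chromosome 11 at 118301069-118355740 (minus strand). It had means of 81.9 at D0, 105 at D3 and 145 at D14. The spread of 0.32 was the smallest of the 10 genes. The log2 ratio to D0 was 0.36 at D3 and 0.82 at D14, or 1.77-fold, which is 2.58 times the spread, though libraries of both groups may overlap.

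*Timp1*, encoding the TIMP best known for rising in the fibrotic liver, lies on chromosome X at 20870166-20874735 (plus strand). Its mean was 6.40 at D0, 1.26 at D3 and 4.30 at D14. Day 0 libraries held between 4.69 and 7.21, and no D3 library can have held more than 2.95. The 3 D3 libraries were all low, 5.08-fold below D0 on average, and the D14 mean was 3.41-fold above them. Against D0 the D14 log2 ratio was -0.57, within the spread of 0.86.

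**Figure D2:**
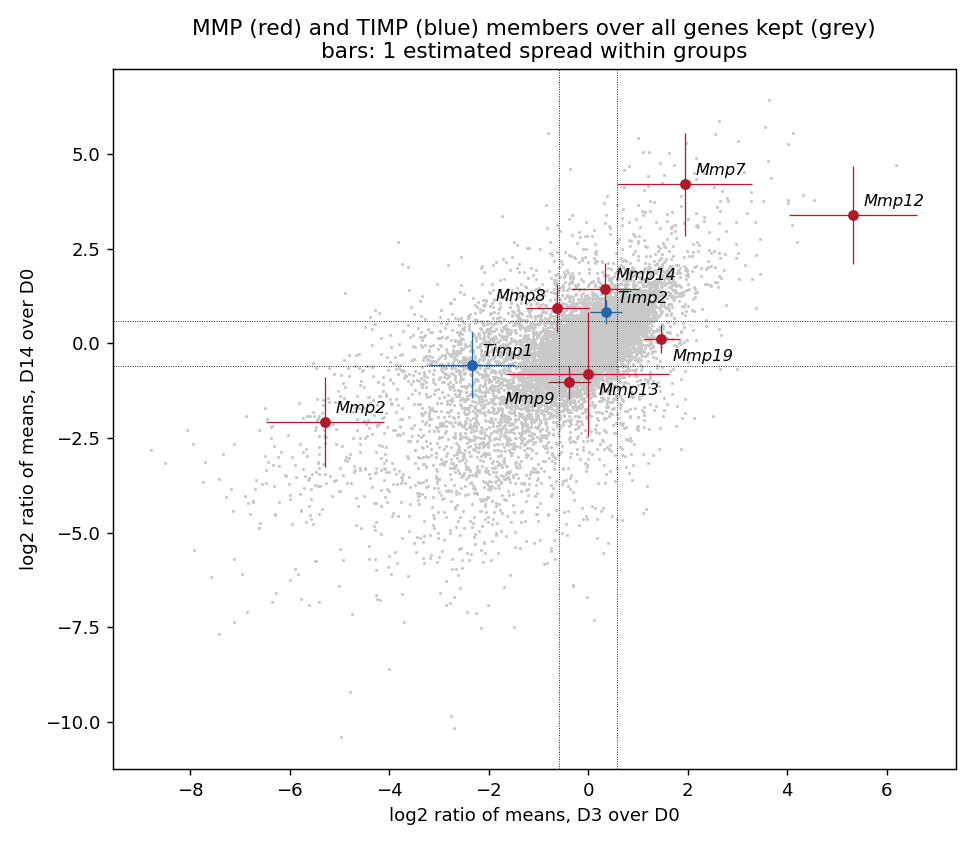
Log2 ratio of group means at D3 over D0 (x axis) and at D14 over D0 (y axis) for 8 MMP genes (red), 2 TIMP genes (blue) and all 12891 genes that passed the minimum (grey). Bars are 1 estimated spread within groups to either side, dotted lines mark 1.5-fold, and both axes share the D0 libraries. *Mmp12* lies at 5.32 and 3.40, *Mmp7* at 1.94 and 4.20 and *Mmp2* at -5.29 and -2.08.

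Levels of different genes were compared per kb of exon, with the exons of all transcripts of a gene in GENCODE M21 joined. This gave *Mmp12* 7.24 kb, the longest of the 10 genes, and *Timp1* 0.888 kb. A joined length can exceed that of the transcript made in these cells, and the level per kb is then too low. The orders between genes depend on these lengths, foremost for *Mmp12*, and other lengths were not tried. At D0 the order from the highest was *Timp2* with 21 normalized counts per kb, *Mmp2* with 7.86, *Timp1* with 7.21, *Mmp9* with 6.30 and *Mmp14* with 5.97, and then *Mmp8*, *Mmp19*, *Mmp13*, *Mmp7* and *Mmp12*, the last with 0.915. At D3 *Mmp12* came first with 36.5, followed by *Timp2* with 27.0, *Mmp19* with 9.65, *Mmp14* with 7.58 and *Mmp9* with 4.83, and *Mmp2* was last with 0.201. At D14 *Timp2* came first again with 37.2, followed by *Mmp7* with 17.4, *Mmp14* with 16.2 and *Mmp12* with 9.63, and *Mmp13* was last with 0.961. Most neighbours in these orders lay within the spread of one or both genes. Of the 9 pairs of neighbours in each group, 2 differed by more than the larger of their spreads at D0 (*Timp2* over *Mmp2*, and *Mmp14* over *Mmp8*), 2 at D3 (*Timp2* over *Mmp19*, and *Timp1* over *Mmp2*) and 0 at D14. Without its highest library, *Mmp7* at D14 had 9.13 counts per kb, below *Mmp14* and *Mmp12*.

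Summed per kb, the 8 MMP genes stood at 30.8 at D0, 66.4 at D3 and 59.9 at D14, and *Timp1* and *Timp2* together at 28.2, 28.4 and 42.0. The MMP sum was therefore 1.09, 2.34 and 1.42 times the sum of these TIMPs. These ratios, and the shares of *Mmp12* that follow, depend on the joined exon lengths. *Mmp12* made up 2.97% of the MMP sum at D0, 55.0% at D3 and 16.1% at D14, so the higher sum at D3 came mostly from this gene. *Timp3*, which was not among the 10 genes, stood at 90.7, 9.86 and 72.5 normalized counts, a log2 ratio of -3.20 at D3 against D0, and these sums leave it out.

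Of the 10 genes, *Mmp7*, *Mmp8*, *Mmp12* and *Mmp13* belong to the cluster of MMP genes on chromosome 9, which spans 427 kb and holds 10 annotated MMP genes, of which 6 were analysed here. The neighbours did not move together. *Mmp13* and *Mmp12*, whose starts are 71.9 kb apart, had log2 ratios of -0.01 and 5.32 at D3 against D0. *Mmp3*, encoding stromelysin, stood at 5.25, 0.0729 and 0.713, and *Mmp27* at 24.8, 28.8 and 8.68. At D14 against D0, *Mmp7*, *Mmp12* and *Mmp8* were more than 1.5-fold higher, and *Mmp3*, *Mmp27* and *Mmp13* were more than 1.5-fold lower. Exons of *Mmp12* share 157 bases with *Mmp1b*, and exons of *Mmp7* share 123 bases with the antisense gene *AV064505*, neither of which was analysed here.

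**Figure D3:**
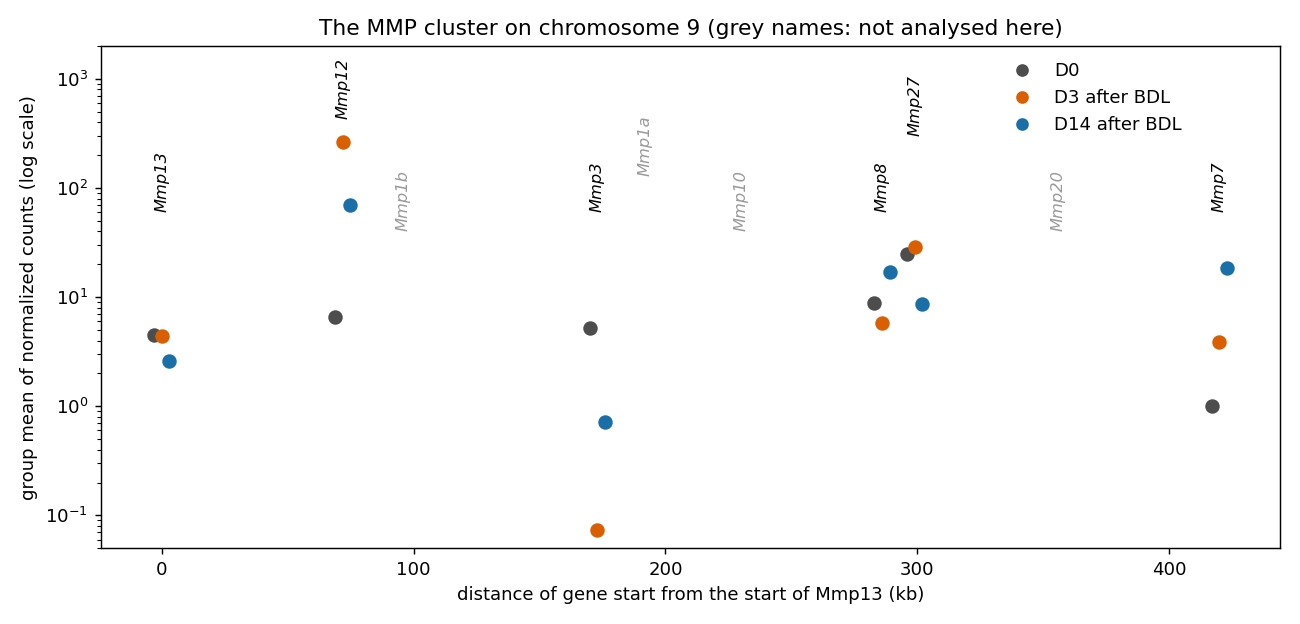
Group means of normalized counts (log scale) for the 6 MMP genes of the chromosome 9 cluster that were analysed, placed by the distance of the gene's start from that of *Mmp13* in kb. Points are shifted by 3 kb to either side of the gene's place to keep the groups apart, and grey names are cluster genes not analysed here. *Mmp12*, at 71.9 kb, reaches 264 at D3, while *Mmp13* at 0 kb stays between 2.57 and 4.46.

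The 250 bases before the start of these genes are shown because clustered MMP genes are known for promoters with a TATA box and a site for AP-1, the FOS and JUN factor that responds to injury. RefSeq windows (GRCm38.p6) matched 7 of the 10 genes. *Mmp7*, *Mmp13* and *Mmp12* are shown, with capitals for TGANTCA (the AP-1 site) and TATAAA, both searched on both strands, with no overlap between them in these windows. Where a gene had more than 1 annotated start, the one nearest to the table's start was taken, which for *Mmp12* lies 16 bases after the start in the table.
Mmp7, chr9:7691840-7692089, plus strand: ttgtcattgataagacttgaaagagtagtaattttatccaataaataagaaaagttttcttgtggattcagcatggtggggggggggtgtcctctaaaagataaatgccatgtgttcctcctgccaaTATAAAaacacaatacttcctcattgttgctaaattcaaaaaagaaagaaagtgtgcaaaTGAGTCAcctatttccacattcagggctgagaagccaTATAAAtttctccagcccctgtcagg
Mmp13, chr9:7272264-7272513, plus strand: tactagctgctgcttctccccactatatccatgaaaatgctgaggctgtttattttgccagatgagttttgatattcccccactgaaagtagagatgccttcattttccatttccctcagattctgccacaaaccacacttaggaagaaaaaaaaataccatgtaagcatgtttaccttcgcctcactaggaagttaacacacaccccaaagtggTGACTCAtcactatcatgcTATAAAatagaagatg
Mmp12, chr9:7344147-7344396, plus strand: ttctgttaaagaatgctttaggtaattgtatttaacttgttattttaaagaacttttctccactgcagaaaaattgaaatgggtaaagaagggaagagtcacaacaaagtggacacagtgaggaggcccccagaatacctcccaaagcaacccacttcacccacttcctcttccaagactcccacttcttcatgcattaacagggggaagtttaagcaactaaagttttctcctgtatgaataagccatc

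The *Mmp7* window holds TGANTCA with its first base 63 bases before the start and TATAAA at 123 and 26 bases before it. The *Mmp13* window holds them at 35 and 16 bases. The windows of *Mmp8*, *Mmp12*, *Mmp14*, *Timp1* and *Timp2* do not hold these letters, and that of *Timp2* lies 329 bases from the start in the table. Of 32851 windows of this length, 6.75% hold TGANTCA and 12.4% hold TATAAA. *Mmp7* and *Mmp13* both carry the 2 motifs, and their D14 ratios to D0 were 4.20 and -0.80. By the group means, 6 of 7 AP-1 genes were more than 1.5-fold lower than D0 at D3, beside 29.2% of all genes, and 5 of 7 at D14, beside 28.8%. These counts rest in part on single D0 libraries: without the D0 library that was highest for the gene, which could be placed for 6 of the 7, they were 4 and 2. The means were, for D0, D3 and D14, 88.1, 9.86 and 11.5 for *Fosb*, 136, 81.9 and 49.7 for *Jund*, 334, 194 and 157 for *Junb* and 174, 42.8 and 97.6 for *Atf3*. Without that library, *Fosb* had log2 ratios to D0 of -2.63 and -2.41, *Jund* -0.21 and -0.93, *Junb* -0.11 and -0.42 and *Atf3* -1.36 and -0.17.

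Other genes of the MMP family were mostly low. Of 15 further MMP genes, 9 were found and 5 passed the minimum. Of these, 4 were more than 1.5-fold lower at D3 than at D0 and 5 were lower at D14, beside 29.2% and 28.8% of all genes. *Mmp3*, *Mmp15*, *Mmp17* and *Mmp23* passed this minimum only through their D0 libraries, so their lower direction after BDL is in part set by the filter. *Mmp23* stood at 7.55, 0.291 and 0.713, *Mmp17* at 2.70, 0.0729 and 0.919, and *Mmp15*, a membrane-anchored MMP, at 4.21, 0.777 and 0.679. With the D3 means of *Mmp3*, *Mmp17* and *Mmp23* at the floor, these genes were at least 18-fold, 9.26-fold and 25.9-fold lower than at D0 by their group means. Leaving out the D0 library that was highest for the gene, the limits were 10.7-fold for *Mmp3*, 5.74-fold for *Mmp17* and 21.2-fold for *Mmp23*, and the D0 mean of *Mmp15* was 1.74. Among the other inhibitors, *A2m*, encoding alpha-2-macroglobulin, stood at 2.78, 0.730 and 1.15, but 1 D0 library held 97.4% of its D0 sum and the D0 mean of the other 2 is at the floor, so no direction is given for it. *Reck*, a membrane-anchored MMP inhibitor that did not pass the minimum, stood at 1.87, 0.0729 and 0.753, with 76.3% of its D0 sum in 1 library and a D0 mean of 0.665 without it. *Timp3* was 2.88 higher on the log2 scale at D14 than at D3, beside a spread of 0.73, and *Timp1*, with 1.77, went in the same direction.

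The ADAM genes, which encode membrane-anchored sheddases, were higher at D14 than at D0 by more than 1.5-fold in 6 of 7 cases, beside 21.2% of all genes. Their median log2 ratio was 1.02, and 5 of 7 were higher without the D14 library that was highest for the gene. *Adam8*, made by myeloid cells, stood at 9.09, 16.9 and 67.1, *Adam15* at 22.4, 17.4 and 76.6, *Adam19* at 3.79, 0.643 and 11.0, and *Adam9* at 32.2, 53.6 and 65.4. The secreted ADAMTS proteases differed from them in direction: 7 of 7 were lower at D3 and 5 of 7 at D14, beside 29.2% and 28.8% of all genes. Among them were *Adamts12* with 3.15, 0.0729 and 0.360, *Adamts5* with 3.71, 0.612 and 0.527, *Adamts2* with 29.9, 0.457 and 5.58 and *Adamts9* with 4.42, 0.863 and 2.03. Without the D0 library that was highest for the gene, 7 of 7 were lower at D3 but 3 of 7 at D14, and the *Adamts9* log2 ratio at D14 went from -1.12 to -0.28 and the *Adamts10* ratio from -0.62 to -0.54. The D0 mean of *Adamts5* was 1.96 without that library. *Adamts5* and *Adamts12* passed the minimum only through D0, so their lower direction is in part set by it. The lysosomal cathepsins were higher in 5 of 6 cases at both times, beside 19.2% and 21.2% of all genes, with median log2 ratios of 0.90 and 1.10. *Ctsd* stood at 1170, 4180 and 4650, *Ctsb* at 3350, 8410 and 7290, *Ctss* at 1420, 2430 and 3230 and *Ctsl* at 363, 549 and 762.

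The plasminogen system, whose protease plasmin activates several proMMPs, was mixed. Of its 5 genes analysed that passed the minimum, 1 was more than 1.5-fold higher and 3 were lower at D14 than at D0, beside 21.2% and 28.8% of all genes. *Plaur*, the receptor of urokinase, stood at 8.80, 37.8 and 54.2, and *Plat*, which encodes tissue plasminogen activator, at 5.38, 1.31 and 2.98. Without its highest D0 library, *Plat* was within 1.5-fold of D0 at D14, with a log2 ratio of -0.37. *Plg*, which encodes plasminogen itself and is made by hepatocytes, stood at 52.8, 20.4 and 5.51, and *Serpine2* at 9.18, 0.428 and 3.46. The 8 hepatocyte markers summed to 3180, 871 and 369, and the part of hepatocyte RNA in the *Plg* level was not tested. Among 6 genes of MMP activation and clearance, *Thbs1*, encoding thrombospondin, which binds MMPs, was the only one past 1.5-fold higher at D14 against D0, with 10.7, 14.4 and 89.3, and *Thbs2* the only one lower, with 3.58, 0.227 and 1.88. The other 4, such as *Bsg* with 246, 289 and 214, were within 1.5-fold of D0 at D14.

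The substrates of these enzymes were lower at D3 than at D0 by more than 1.5-fold in 12 of 12 cases, beside 29.2% of all genes, with a median log2 ratio of -4.23. They were higher at D14 than at D3 in 12 of 12, beside 21.2% of all genes, with a median of 2.74. *Col3a1* stood at 422, 4.47 and 32.3, *Col1a2* at 255, 2.85 and 25.2, *Col1a1* at 155, 2.62 and 16.9, and *Eln*, which encodes the elastin that MMP12 cuts, at 63.1, 1.84 and 5.07. The *Eln* mean at D0 was 39.7 without its highest library. The elastin mean was lowest at D3, as were those of the other substrates, and the *Mmp12* mean was highest there. A link between these RNA levels was not tested. *Mmp2*, *Timp1* and *Timp3* had their highest mean at D0 and their lowest at D3, which was the order of the fibrillar collagens and of the summed stellate cell and fibroblast markers. Of these 11 markers, 6 were more than 1.5-fold higher at D14 than at D3 and 4 were lower, beside 21.2% and 19.7% of all genes. The summed cholangiocyte markers, with 94.2, 48.8 and 58.5, and the summed endothelial markers, with 991, 580 and 941, had the same order. Among the substrates, *Fn1*, *Col4a2* and *Nid1* also had their lowest mean at D3 but their highest at D14. *Fn1*, which encodes fibronectin, stood at 137, 62.3 and 356. For *Col4a2* a single D14 library held 62.4% of the group's sum, and without it the D14 mean of 46.9 was below the D0 mean of 70.0.

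**Figure D4:**
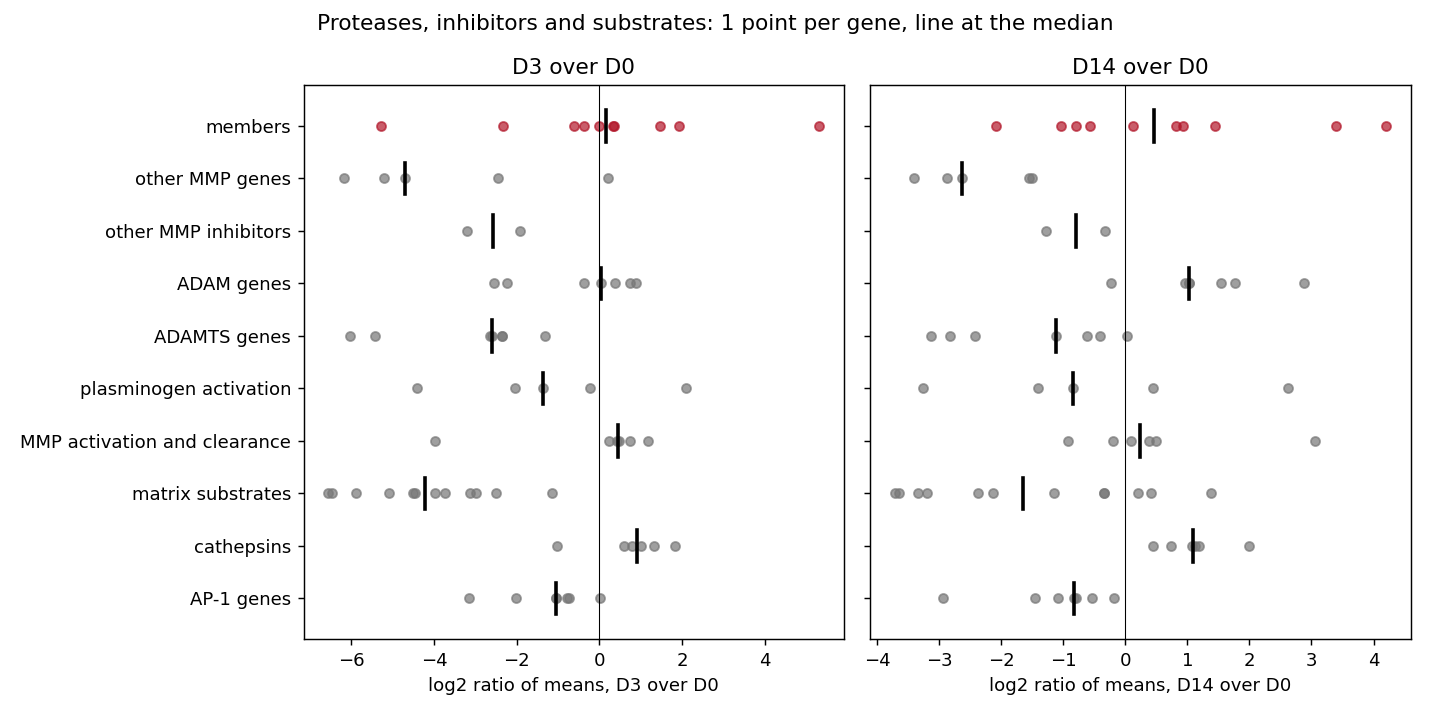
Log2 ratio of group means over D0 at D3 (left) and D14 (right) for the 10 MMP and TIMP genes (red) and for genes of related lists (grey), 1 point per gene that passed the minimum, with a black line at the median. The 10 genes reach from -5.29 to 5.32 at D3, while all 12 matrix substrates lie on the lower side, with a median of -4.23.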

How the data were processed

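GFP(+) cells of 3 groups were profiled by mRNA sequencing. The authors trimmed reads (quality 20, length 25 bp), aligned them with STAR to mm10, quantified genes of GENCODE M18 and scaled the counts to the upper quartile, all in Partek Flow. The submitters' processing notes give STAR 2.6.1d. The deposited signal values are 1 mean per group, which the authors took over their normalized counts. The table also holds the mean, the geometric mean and the maximum over all 10 libraries, which the authors deposited. The geometric mean and the maximum serve here for the bounds. The geometric mean also gives the spread within groups, and the maximum the means without the highest library. The overall mean defines the genes with a mean of at least 10. Its columns of p-value, FDR, ratio and signed fold change with 95% limits are the authors' own comparisons and were not used. There were 0 columns of values per library, so depth and counting error could not be assessed. Weighted by 3, 3 and 4 libraries, the means of the groups matched the overall mean to within 0.678%.

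Log2 ratios were computed from the group means without a pseudocount, for genes with a total of at least 10 normalized counts over the libraries. A gene could pass this minimum through a single group, as some markers of stellate cells, cholangiocytes and neutrophils did through D0. Counts of lower genes in the lists are therefore in part set by the minimum. The lowest value open to a library of a group of n is n times the mean less (n - 1) times the highest library, and the highest is the smaller of the highest library and n times the mean. A tighter version also used the product of all libraries given by the geometric mean. Rounding of 0.5% was allowed. The spread within groups was taken from the gap between the logarithms of the group means and the geometric mean, under log-normal values. The tighter bounds, the spread the levels per kb and the list counts without the highest library were chosen after the data were seen. Steps were tested on simulated data, with Python 3.11.15, numpy 2.4.6 and pandas 2.3.3. The table's Stop column passes the last base by 1, and with this corrected 99.9% of 16950 matched genes, all 10 genes described included, had the coordinates of GENCODE M21, whose exons gave the lengths.

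All 10 MMP and TIMP genes are named. From each other list up to 4 genes past 1.5-fold with the largest log2 ratio at D14 against D0 are named, or all genes of a list with under 5 that passed the minimum. From cell type lists only some of the highest genes at D14 and some of the markers at the floor are named. No gene of the Kupffer cell, hepatocyte and endothelial lists is named, and these lists are given as sums and counts. For each member the 3 nearest genes by pattern were computed. *Krt19*, *Prom1*, *Cldn4*, *Mmp27*, *Bsg*, *Fn1*, *Col4a2*, *Nid1*, *Adamts10* and *Tmem198b* were named after their values were seen. The members and lists were chosen with earlier results of these data known. 1 gene of the plasminogen list is not reported here.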

Additional observations from a re-analysis of the deposited data

How the results depend on the processing

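No paired analysis was possible, since the 3 groups were collected from different mice. Because the deposited values are group means, leaving out each replicate in turn could not be run. The highest library of each gene was left out instead where the sums of the other groups placed it. Of 120 log2 ratios of the 10 genes recomputed under median-ratio scaling, quantile normalization and a pseudocount of 1 or 0.1, 119 moved by less than the spread within groups. Median-ratio scaling shifts all genes of a comparison alike and by little here, so its 30 ratios could hardly have moved further. A move smaller than the spread can still change a call, as given below. Leaving out the highest library could change only 6 of 30 ratios where the sums placed it, and 12 of 30 where the geometric mean did, and these moved by less than that spread. None of the ratios past 1.5-fold changed sign under these settings. The ratio that moved by more than the spread was that of *Mmp2* at D3 against D0, which went from -5.29 to -4.04 with a pseudocount of 1. Quantile normalization ended the calls of *Mmp8* at D3 and *Mmp13* at D14, both against D0, and a pseudocount of 1 ended that of *Mmp8*. The count of the 10 genes past 1.5-fold at D14 against D0 was 8, and 5 at a threshold of 2-fold. With the geometric mean in the bounds, 1 of the 10 rather than 0 could not overlap between D3 and D14.

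Counts over all genes depended on the filter and threshold. In the order D3 against D0, D14 against D0 and D14 against D3, the genes past 1.5-fold were 6235, 6437 and 5271. They were 9545, 9573 and 8242 without a filter, 2769, 2975 and 2301 with a mean of at least 10, and 3633, 3781 and 2985 at 2-fold. Genes whose groups cannot overlap were 231, 198 and 69, and 488, 481 and 247 with the geometric mean. Quantile normalization put 54.9% of the calls at D3 and 54.3% at D14 against D0 on the higher side, against 39.7% and 42.4% as deposited, and with it *Mmp13* was higher rather than near 0 at D3, with a log2 ratio of 0.62. The median of all genes moved by under 0.1 on the log2 scale with median-ratio scaling. Library depth is unknown, so low means such as those of *Mmp7* at D0 and *Mmp2* at D3 carry a counting error that could not be given.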
